A study of Homo sapiens with 12 samples.

Results

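The genes described here are 40 interferon-stimulated and antigen presentation genes, chosen by name and read on the array probes that the probe annotation pairs with 1 of their symbols. A probe was found for 39 of the 40, on 60 probes, and all 39 were among the 11764 genes tested, of 20046 genes with such a probe. STAT2 was not analysed here. They were measured in MDA-MB-231 and BT-549, established human cell lines of triple-negative breast cancer, a class defined by the absence of oestrogen receptor, progesterone receptor and HER2 amplification. Cells of each line spent 48 h with 10 uM everolimus, a rapamycin derivative that inhibits the growth kinase complex mTORC1, or with its vehicle DMSO, and total RNA was hybridised to Illumina bead arrays. There were 3 arrays in each of the 4 groups (12 arrays): MDA-MB-231 in DMSO, MDA-MB-231 in everolimus, BT-549 in DMSO and BT-549 in everolimus. The title of the series concerns homologous recombination repair and PARP inhibitors, and the design text asks only what everolimus does against DMSO. Whether replicates came from separate cultures is not stated in the labels, so a p-value here reflects spread between arrays that could be technical alone.

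Type I interferons bind a receptor on the cell surface, and its kinases activate the factor ISGF3, whose DNA-binding subunit is IRF9. ISGF3 binds interferon-stimulated response elements in the promoters of antiviral genes such as the IFIT, OAS, MX and ISG families. Interferon gamma acts through gamma-activated sites and induces IRF1 and, through it, the genes of antigen presentation. MHC class I molecules (a heavy chain such as HLA-B, HLA-C or HLA-E, with B2M) are loaded in the endoplasmic reticulum with peptides that TAP1 and TAP2 transport and tapasin (TAPBP) helps to place. Tumour cells can express these genes without added interferon, and the heavy chains present peptides to T cells or, for HLA-E, engage receptors of natural killer cells.

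The response element can be read in many of the promoters. RefSeq windows (GRCh38.p14, 250 bases before to 50 after a gene's start) were matched for 32 of the 40 genes, 40 windows in all. The letters GAAANNGAAA, on either strand, stood in 26 of the 40 windows (65.0%) and in 3.57% of all 35116 windows. Of the 32 genes, 22 had such a window. The letters TTCNNNGAA, which are the same on both strands and mark gamma-activated sites, stood in 11 of the 40 windows (27.5%) and in 7.66% of all. For a gene with more than 1 window, the window with most matches of GAAANNGAAA is printed here. IFIT3, IFI44 and TAP1 each have 1 other window. That of TAP1 holds 0 matches of GAAANNGAAA and 1 of TTCNNNGAA. Neither motif overlaps the other in the windows printed here. The windows below are those of ISG15, IFIT3, IFI44, TAP1 and TAPBP, whose signals the results return to, with GAAANNGAAA or its reverse complement in capitals, and of IRF1, with TTCNNNGAA in capitals.
ISG15 (chr1:1013247-1013546, plus strand): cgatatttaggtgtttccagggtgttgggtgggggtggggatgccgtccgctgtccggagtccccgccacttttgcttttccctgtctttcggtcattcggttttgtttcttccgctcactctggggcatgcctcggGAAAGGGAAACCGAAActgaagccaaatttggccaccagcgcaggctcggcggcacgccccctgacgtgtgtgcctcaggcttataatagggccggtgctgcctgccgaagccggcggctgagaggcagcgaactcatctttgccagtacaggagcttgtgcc
IFIT3 (chr10:89327747-89328046, plus strand): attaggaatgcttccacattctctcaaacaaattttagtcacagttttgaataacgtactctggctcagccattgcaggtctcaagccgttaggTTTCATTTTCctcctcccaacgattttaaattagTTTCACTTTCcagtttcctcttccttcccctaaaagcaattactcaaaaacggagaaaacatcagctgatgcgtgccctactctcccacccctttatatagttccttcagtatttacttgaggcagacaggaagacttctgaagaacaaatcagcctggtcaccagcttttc
IFI44 (chr1:78649539-78649838, plus strand): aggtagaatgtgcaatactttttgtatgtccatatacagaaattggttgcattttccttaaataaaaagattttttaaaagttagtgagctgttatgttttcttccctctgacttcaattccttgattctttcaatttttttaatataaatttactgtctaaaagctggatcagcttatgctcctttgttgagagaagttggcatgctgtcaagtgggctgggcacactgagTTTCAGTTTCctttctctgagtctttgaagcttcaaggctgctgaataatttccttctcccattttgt
TAP1 (chr6:32853655-32853954, minus strand): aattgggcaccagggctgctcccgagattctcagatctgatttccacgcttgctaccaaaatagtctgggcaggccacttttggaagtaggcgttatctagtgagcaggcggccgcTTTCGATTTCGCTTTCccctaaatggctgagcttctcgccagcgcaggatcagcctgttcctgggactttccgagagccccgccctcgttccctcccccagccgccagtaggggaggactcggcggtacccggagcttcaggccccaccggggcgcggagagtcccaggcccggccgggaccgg
TAPBP (chr6:33314029-33314328, minus strand): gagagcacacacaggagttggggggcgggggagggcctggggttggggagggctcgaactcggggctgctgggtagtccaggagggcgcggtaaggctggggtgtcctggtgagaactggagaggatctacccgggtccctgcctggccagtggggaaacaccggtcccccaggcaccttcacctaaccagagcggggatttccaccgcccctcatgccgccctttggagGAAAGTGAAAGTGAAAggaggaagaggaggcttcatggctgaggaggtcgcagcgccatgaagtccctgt
IRF1 (chr5:132490724-132491023, minus strand): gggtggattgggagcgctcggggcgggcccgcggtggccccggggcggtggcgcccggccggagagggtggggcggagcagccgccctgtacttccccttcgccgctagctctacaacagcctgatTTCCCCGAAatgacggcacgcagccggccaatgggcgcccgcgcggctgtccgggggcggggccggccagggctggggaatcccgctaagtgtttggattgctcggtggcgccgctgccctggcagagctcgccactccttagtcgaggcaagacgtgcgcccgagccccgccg
The ISG15, TAP1 and TAPBP windows each hold 2 overlapping copies of the first motif, the IFIT3 window 2 separate copies and the IFI44 window 1. The first copy begins at position -113 from the start in ISG15, -134 in TAP1 and -20 in TAPBP. A match is a run of letters and was not tested as a binding site.

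Values are the deposited log2 signals, in which a difference of 1 is a doubling, and background was left in them, so that changes of dim genes are compressed. A probe was taken as above background over a floor of 6.77. Of the 39 genes, 31 lay above it on every array of MDA-MB-231 in DMSO, 35 in MDA-MB-231 in everolimus, 25 in BT-549 in DMSO and 22 in BT-549 in everolimus. Arrays of 1 group correlated at r = 0.927 to 0.995 over genes tested. Replicate 1 deviated most from the mean of its group in all 4 groups (SD over genes tested of 0.229 to 0.393). In BT-549 in DMSO, replicate 3 came close to it (0.218 against 0.229). VIM, a mesenchymal marker, was high in both lines, CDH2, another, was above the floor on BT-549 arrays only, and the mesenchymal marker FN1 was near or below the floor throughout (group means of 6.58 to 6.88). The keratin genes KRT8 and KRT19 were higher in MDA-MB-231. Of the receptor genes low in this class, ESR1 and PGR did not pass the floor, while ERBB2 (HER2) lay above it on every array, at means of 8.33 and 8.75 under DMSO in MDA-MB-231 and BT-549. In bulk RNA, fewer cells of a type and less RNA per cell cannot be told apart.

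The widest differences in these genes lay between arrays of the same group. Median deviations from the group mean over the 39 genes were -0.72, 0.12 and 0.58 on replicates 1, 2 and 3 of BT-549 in everolimus, and -0.30, 0.05 and 0.29 in BT-549 in DMSO. Over all genes tested, the medians were within 0.03 of 0 on every array. The deposited values have the same quantiles on every array, which holds such medians near 0. In MDA-MB-231 the deviations of the 39 genes were smaller, -0.15, 0.16 and 0.05 in DMSO and -0.13, 0.03 and 0.10 in everolimus. Replicate 1 was thus low in all 4 groups, and most so in BT-549.

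Gene by gene, replicate 1 was the lowest of the 3 arrays for 27 of 39 genes in MDA-MB-231 in DMSO, 26 in MDA-MB-231 in everolimus, 30 in BT-549 in DMSO and 35 in BT-549 in everolimus. Over all genes tested the shares were 45.5%, 46.2%, 46.0% and 45.4%. Replicate 3 was the highest for 9, 21, 27 and 32 of the 39 genes in these groups. Its shares over all genes were 29.1%, 31.4%, 43.9% and 32.9%. In BT-549, 13 of the genes in DMSO and 17 in everolimus were at or below the floor on replicate 1 and above it on the other arrays. Over all 11764 genes tested, 9840, 10078 and 10145 lay above the floor on replicates 1, 2 and 3 of BT-549 in DMSO. In BT-549 in everolimus these numbers were 9999, 10356 and 10360. For the 39 genes they were 26, 38 and 39 in DMSO and 22, 39 and 39 in everolimus. The median spread of a gene from lowest to highest array was 0.52, 0.42, 0.78 and 1.37 log2 in the same order of groups, against 0.29, 0.27, 0.25 and 0.35 over all genes. A spread above 1 was seen for 8, 12, 14 and 26 of the 39 genes, against 3.26%, 3.65%, 3.49% and 9.99% of all genes. MX1, a GTPase that blocks viral nucleocapsids, had the widest spread, with 6.56, 9.84 and 10.77 on the arrays of BT-549 in DMSO and 6.63, 10.40 and 11.74 in everolimus. Its replicate 1 arrays were below the floor, with both other arrays far above it.

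Some genes went the other way. In MDA-MB-231 the replicate 1 arrays were the highest for IFI27, IFITM1, XAF1, BST2, HLA-B, HLA-C and HLA-E in both groups. IFI27 read 8.63, 6.93 and 6.86 in DMSO and 9.15, 7.16 and 7.32 in everolimus. In BT-549 replicate 1 was the highest for OAS1, IFITM2 and IFITM3 in both groups and the lowest for IFI27. The 22 tested genes with GAAANNGAAA in a window had a median spread of 1.48 in BT-549 in everolimus and 0.90 in DMSO, and the 9 with a window and no match 0.90 and 0.43. In MDA-MB-231 the 22 genes had 0.52 in everolimus and 0.62 in DMSO, and the 9 had 0.58 and 0.39. Tested genes without a window, such as IFIT2 and IRF7, are in neither set. The split by TTCNNNGAA went the other way in BT-549. Its 10 genes with a match had 1.01 in everolimus and 0.45 in DMSO, and the 21 without had 1.40 and 0.80. A link between motif and spread was not tested. The genes of the next list, 37 other interferon-stimulated genes, were lowest on replicate 1 for 26, 24, 31 and 28 genes in the 4 groups. What sets the replicate 1 arrays apart was not tested.

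**Figure D1:**
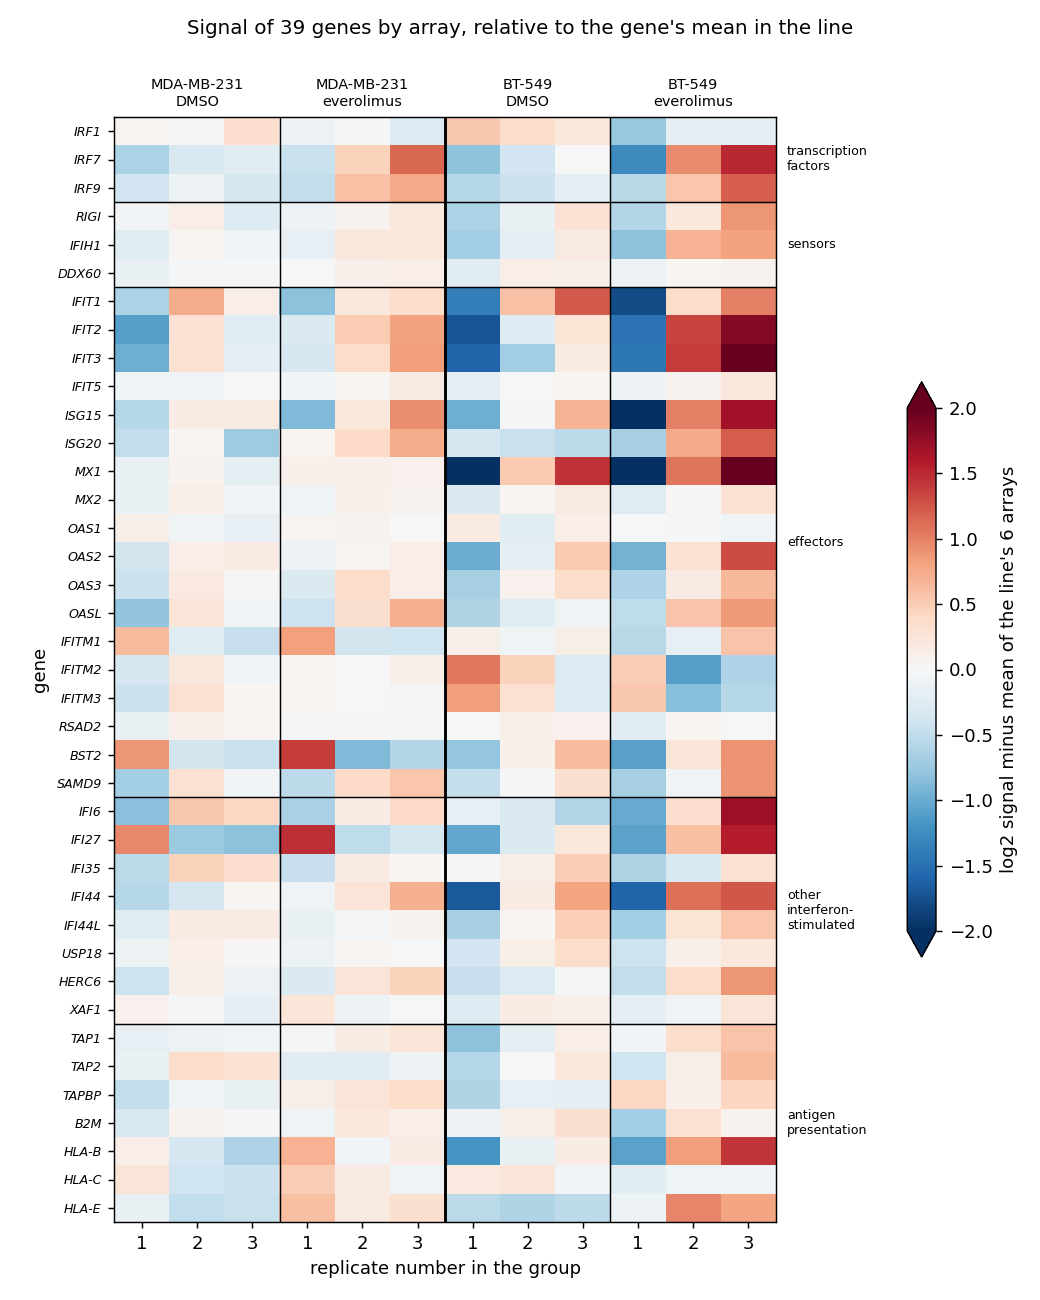
Log2 signal of the 39 genes (rows, grouped by role) on the 12 arrays (columns, by replicate number within each group), each minus the gene's mean over the 6 arrays of its line; blue is lower, red is higher, and colours end at 2 in either direction. The replicate 1 columns of BT-549 are blue for most genes, and replicates 2 and 3 of BT-549 in everolimus are the reddest.

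No gene of the 39 was called for everolimus in MDA-MB-231, and 3 were in BT-549: HLA-E and TAPBP higher and IRF1 lower. Calls are by limma on all 12 arrays (2-sided, adjusted p under 0.05 over all genes). With the 6 BT-549 arrays fitted alone by limma, HLA-E, TAPBP and IRF1 kept their fold changes and lost their calls (adjusted p = 0.0511, 0.0582 and 0.0559). Over all genes tested 0.153% were called in MDA-MB-231, and 2 of the 39 (TAPBP and HLA-E) had an unadjusted p under 0.05, against 10.6% of all genes. In BT-549, 3 of 39 (7.69%) stand against 16.8% of all genes, with 2 higher against 9.54% and 1 lower against 7.23%. The share called was therefore below the background in BT-549. Leaving out 1 BT-549 array moved the count to 1 (DMSO replicate 1), 1 (everolimus replicate 3) or 14 (everolimus replicate 1). Shares over all genes in these fits are not given here, so these counts cannot be read as particular to the 39 genes. The median log2 fold change of the 39 genes was 0.15 in MDA-MB-231, with 30 above 0, and 0.21 in BT-549, with 27 above 0, beside -0.01 and 0.04 over all genes.

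Without the 4 replicate 1 arrays, the counts were larger. These arrays were left out with earlier results known, and they deviated most from their groups. Leaving them out narrows the spread that the test uses, so p-values of the 8-array fit here and below are descriptive. On the other 8 arrays, 2 a group, 4 of the 39 genes were called in MDA-MB-231, all higher, where 7.16% of all genes were called. In BT-549, 20 of the 39 (51.3%) were called, where 39.6% of all genes were. Of these, 16 were higher (41.0%, against 22.9% of all genes) and 4 lower (10.3%, against 16.6%). The median log2 fold change on these arrays was 0.27 in BT-549 and 0.16 in MDA-MB-231. The share called over all genes in BT-549 was also larger without replicate 1, at 39.6% against 16.8% with all arrays.

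Arrays were also compared without a model. In MDA-MB-231 the 3 everolimus arrays lay above the 3 DMSO arrays for MX1, DDX60, TAP1, TAPBP and HLA-E, 5 of 39 genes against 8.63% of all genes, and below them for IRF1 alone, against 9.94%. In BT-549 the groups separated upward for TAPBP and HLA-E, against 18.5% of all genes, and downward for IRF1 and HLA-C, against 14.1%. Same-numbered arrays of MDA-MB-231 were taken as pairs, although not every array there correlated best with its own number. Everolimus was higher in all 3 pairs for 20 of 39 genes (51.3%), against 21.0% of all genes. It was lower in all 3 for 3 genes, against 23.1%. Many of the 39 genes shifted together between arrays, so these counts rest on 3 pairs and not on 39 separate observations. TAPBP and HLA-E were above DMSO on every array in both lines, and IRF1 was below it in both.

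Of the transcription factors, IRF1, which induces MHC class I and peptide-loading genes, was lower in everolimus. It read 9.46, 9.27 and 9.15 in BT-549 in DMSO and 8.17, 8.75 and 8.75 in everolimus. Every everolimus array lay below every DMSO array. The fall was 1.67-fold (log2 -0.74 ± 0.17 SE, adjusted p = 0.0145), and -0.46 ± 0.13 (adjusted p = 0.0192) without replicate 1. In MDA-MB-231, IRF1 read 8.86, 8.84 and 9.15 in DMSO and 8.70, 8.78 and 8.54 in everolimus. The groups did not overlap there either, at a log2 fold change of -0.28 ± 0.17 (adjusted p = 0.631).

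IRF9, the DNA-binding subunit of ISGF3, read 9.03, 9.17 and 9.40 in BT-549 in DMSO and 9.04, 10.16 and 10.79 in everolimus. Replicates 2 and 3 of everolimus were above all DMSO arrays and replicate 1 was among them. In MDA-MB-231 the values were 8.40, 8.69 and 8.43 in DMSO and 8.30, 9.37 and 9.54 in everolimus, where replicates 2 and 3 were again the high ones and replicate 1 was below DMSO. The fits over all arrays gave log2 fold changes of 0.80 ± 0.41 in BT-549 (adjusted p = 0.205) and 0.56 ± 0.41 in MDA-MB-231 (adjusted p = 0.73). On the 8 arrays of replicates 2 and 3, IRF9 was higher by 1.19 ± 0.19 (2.28-fold, adjusted p = 0.000895) in BT-549 and 0.90 ± 0.19 (1.86-fold, adjusted p = 0.0235) in MDA-MB-231. IRF7, which amplifies the type I interferon response, had a like pattern: 0.79 ± 0.61 and 0.78 ± 0.61 over all arrays, and 1.41 ± 0.24 (adjusted p = 0.00113) and 1.07 ± 0.24 (adjusted p = 0.0261) on the 8, in BT-549 and MDA-MB-231. A second IRF7 probe gave 0.84 and 0.46 over all arrays.

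The sensors of viral RNA did not pass the test over all arrays in either line. RIGI and IFIH1 (MDA5) bind double-stranded RNA, and DDX60 is a helicase linked to them. Their log2 fold changes in BT-549 were 0.34 ± 0.32, 0.46 ± 0.37 and 0.00 ± 0.11, and in MDA-MB-231 0.12 ± 0.32, 0.19 ± 0.37 and 0.15 ± 0.11. On the 8 arrays IFIH1 was higher in BT-549 (0.76 ± 0.13, adjusted p = 0.00152), and the other sensors were not called. RIGI was at or below the floor on replicate 1 of both BT-549 groups.

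The 18 antiviral effectors held the widest spreads, and 0 of them were called for everolimus over all arrays in either line. In the 8-array fit, 1 was called higher in MDA-MB-231, and 5 higher and 3 lower in BT-549, shares near those of all genes there (22.9% higher and 16.6% lower). ISG15, a ubiquitin-like modifier, read 9.80, 10.75 and 11.46 in BT-549 in DMSO and 8.40, 11.78 and 12.46 in everolimus. Replicates 2 and 3 of everolimus lay above every DMSO array and replicate 1 below them all. The log2 fold change was 0.21 ± 0.89 (adjusted p = 0.908) over all arrays and 1.01 ± 0.29 (2.02-fold, adjusted p = 0.0178) on the 8. In MDA-MB-231, ISG15 read 10.05, 10.78 and 10.80 in DMSO and 9.74, 10.84 and 11.55 in everolimus, groups that overlap.

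ISG20, a 3′-to-5′ exonuclease, read 7.85, 7.73 and 7.66 in BT-549 in DMSO and 7.51, 8.94 and 9.40 in everolimus. In MDA-MB-231 it read 8.80, 9.33 and 8.58 in DMSO and 9.33, 9.67 and 10.04 in everolimus, where all 3 pairs were higher. Replicates 2 and 3 of everolimus were high in both lines, and replicate 1 was the lowest of its group. Over all arrays the log2 fold changes were 0.87 ± 0.40 (adjusted p = 0.162) and 0.78 ± 0.40 (adjusted p = 0.54), and on the 8 arrays 1.47 ± 0.23 (adjusted p = 0.000845) and 0.90 ± 0.23 (adjusted p = 0.0466), in BT-549 and MDA-MB-231.

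The IFIT proteins bind viral RNA ends, and 0 of the IFIT genes were called over all arrays. IFIT1 read 7.08, 9.06 and 9.69 in BT-549 in DMSO and 6.68, 8.83 and 9.48 in everolimus. The groups overlap, and replicate 1 lay far below the other arrays in both. Its log2 fold change was -0.28 ± 0.78 (adjusted p = 0.855), and -0.22 ± 0.26 (adjusted p = 0.549) on the 8 arrays. In MDA-MB-231, IFIT1 read 8.32, 9.70 and 9.09 in DMSO and 8.13, 9.16 and 9.31 in everolimus, with replicate 1 again lowest.

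IFIT2 and IFIT3 were not called over all arrays in BT-549 (1.13 ± 0.79 and 1.44 ± 0.80) and were higher on the 8 arrays, by 1.58 ± 0.23 (2.99-fold, adjusted p = 0.000486) and 2.08 ± 0.32 (4.23-fold, adjusted p = 0.000685). A dimmer IFIT3 probe gave -0.17 in BT-549 over all arrays against 1.44, so the IFIT3 value rests on the brighter probe. In MDA-MB-231, IFIT2 and IFIT3 were at 0.62 ± 0.23 and 0.53 ± 0.32 on the 8 arrays and not called. IFIT5 was near the floor in all groups, with means of 6.88 to 7.05.

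MX1, whose BT-549 values are given above, had a log2 fold change of 0.53 ± 1.21 there (adjusted p = 0.817), and the groups overlap. In MDA-MB-231 it was dim, at 6.97, 7.19 and 6.93 in DMSO and 7.23, 7.22 and 7.21 in everolimus. Those groups did not overlap, at 0.19 ± 1.21 (adjusted p = 0.993). The spread that the fit shares over all groups comes mostly from BT-549 for this gene. MX2 stayed close to the floor, with means of 6.66 to 7.03.

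The OAS enzymes make the oligoadenylate that activates RNase L. OAS1 read 6.97, 6.78 and 6.69 in MDA-MB-231 in DMSO and 6.92, 6.93 and 6.87 in everolimus, and 7.05, 6.66 and 7.01 in BT-549 in DMSO and 6.87, 6.85 and 6.79 in everolimus. These values are close to the floor, and the groups overlap in both lines. On the 8 arrays OAS1 was called lower in BT-549 (-0.33 ± 0.11, adjusted p = 0.0406), but on another probe, the brightest over those arrays. On the probe given above, replicates 2 and 3 overlap. OASL, an enzymatically inactive relative, was higher there on the 8 arrays (0.87 ± 0.16, adjusted p = 0.00224), while OAS2 (0.62 ± 0.29) and OAS3 (0.18 ± 0.17) were not called.

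The IFITM proteins hold back viral entry at membranes. IFITM2 and IFITM3 were not called in BT-549 over all arrays (-0.82 ± 0.39, adjusted p = 0.175, and -0.58 ± 0.36, adjusted p = 0.296). On the 8 arrays they were lower, by -0.95 ± 0.23 (adjusted p = 0.00821) and -0.72 ± 0.18 (adjusted p = 0.0103). In MDA-MB-231 they were at 0.10 ± 0.39 and 0.05 ± 0.36. These genes are close copies of each other, and a probe of 1 may also bind RNA of the others. IFITM1, BST2 (tetherin), RSAD2 (viperin) and SAMD9 were not called in either line in either fit.

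**Figure D2:**
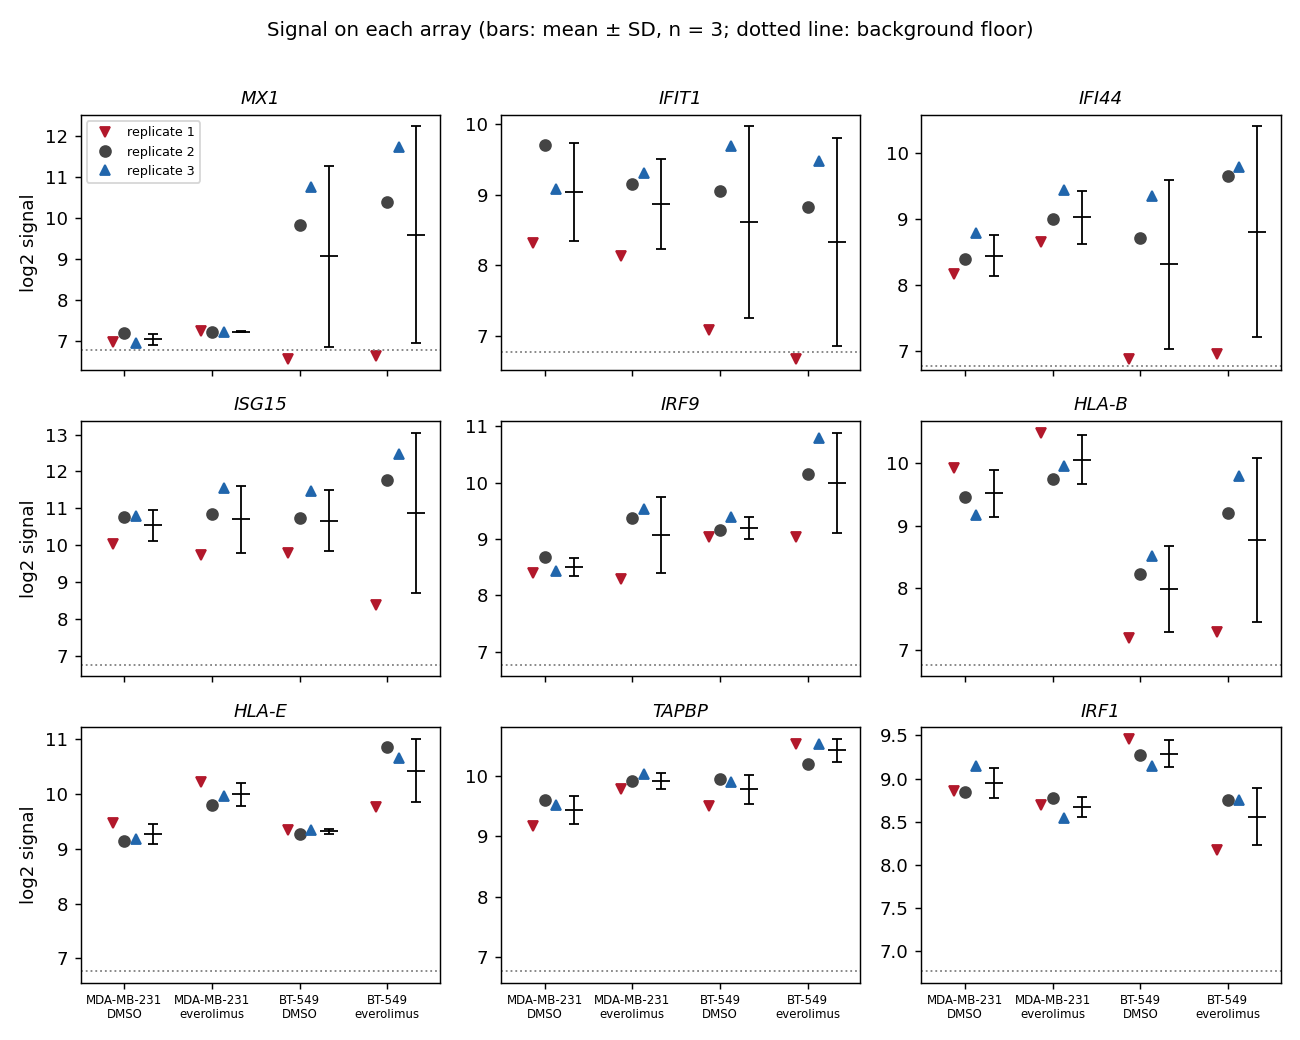
Log2 signal on each array for 9 genes in the 4 groups, with 1 symbol per replicate number, a bar for the mean ± SD (n = 3) and a dotted line at the floor of 6.77; the axes differ between genes and do not begin at 0. Replicate 1 of both BT-549 groups lies far below the other arrays for MX1, IFIT1 and IFI44, while TAPBP and IRF1 separate everolimus from DMSO on every BT-549 array.

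The 8 other interferon-stimulated genes had 0 calls over all arrays and, on the 8 arrays, 4 calls in BT-549, all higher, where 22.9% of all genes were. These were IFI6, a mitochondrial and endoplasmic reticulum protein (1.47 ± 0.33, adjusted p = 0.00598), IFI27 (1.12 ± 0.27, adjusted p = 0.00787), HERC6 (0.78 ± 0.17, adjusted p = 0.00506) and IFI44 (0.69 ± 0.22, adjusted p = 0.0284). Over all arrays they were at 0.70 ± 0.59, 0.73 ± 0.74, 0.51 ± 0.31 and 0.49 ± 0.74. A second probe of IFI6 gave -0.90 over all arrays where the brighter gave 0.70, so the direction of IFI6 in BT-549 depends on the probe. USP18, the protease that removes ISG15 from proteins, stayed near the floor, with means of 6.69 to 7.06.

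XAF1, a proapoptotic interferon target, read 8.13, 8.56 and 8.52 in BT-549 in DMSO and 8.22, 8.34 and 8.66 in everolimus, and 7.52, 7.41 and 7.26 and 7.67, 7.31 and 7.44 in MDA-MB-231. The drug groups overlap in each line. The log2 fold change was 0.00 ± 0.16 in BT-549 and 0.08 ± 0.16 in MDA-MB-231, and a second probe gave 0.59 and -0.23.

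Of the 7 antigen presentation genes, 2 rose in BT-549, where 9.54% of all genes did, while MDA-MB-231 had 0 calls among them and 0.153% over all genes. Calls on the 8 arrays numbered 4 in BT-549 and 1 in MDA-MB-231, all higher. In that fit 22.9% of all genes were called higher in BT-549, and 7.16% were called in either direction in MDA-MB-231. HLA-E, a nonclassical MHC class I heavy chain, read 9.34, 9.28 and 9.35 in BT-549 in DMSO and 9.77, 10.86 and 10.66 in everolimus. All everolimus arrays were above all DMSO arrays, with replicate 1 the lowest of the 3. The rise was 2.15-fold (log2 1.11 ± 0.24, adjusted p = 0.0119), and 2.72-fold without replicate 1 (1.45 ± 0.11, adjusted p = 1.8e-05). In MDA-MB-231, HLA-E read 9.48, 9.14 and 9.19 in DMSO and 10.23, 9.81 and 9.96 in everolimus, again with no overlap. The value there was 0.73 ± 0.24 (1.66-fold, adjusted p = 0.277), and 0.72 ± 0.11 (adjusted p = 0.00806) on the 8 arrays.

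TAPBP (tapasin), which bridges TAP and the empty heavy chain, read 9.50, 9.94 and 9.90 in BT-549 in DMSO and 10.52, 10.20 and 10.53 in everolimus. No arrays overlapped, and here replicate 1 of everolimus was not low. The rise was 1.55-fold (0.64 ± 0.16, adjusted p = 0.0215), and 0.45 ± 0.12 (adjusted p = 0.017) on the 8 arrays. In MDA-MB-231, TAPBP read 9.17, 9.60 and 9.52 in DMSO and 9.78, 9.92 and 10.03 in everolimus. It was above DMSO on every array, at 0.48 ± 0.16 (adjusted p = 0.282). A dimmer TAPBP probe, above the floor on 5 arrays, gave -0.19 in BT-549, and the mean of both probes gave 0.23 with no call (adjusted p = 0.141).

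TAP1 and TAP2 form the peptide transporter. TAP1 read 8.82, 9.45 and 9.76 in BT-549 in DMSO and 9.58, 9.98 and 10.21 in everolimus, groups that overlap. Its log2 fold change was 0.58 ± 0.22 (adjusted p = 0.0974), and 0.49 ± 0.13 (adjusted p = 0.0133) on the 8 arrays. In MDA-MB-231 it read 8.78, 8.83 and 8.86 in DMSO and 8.91, 9.10 and 9.19 in everolimus, with no overlap, at 0.24 ± 0.22 (adjusted p = 0.81). TAP2 read 6.81, 7.37 and 7.59 in BT-549 in DMSO and 6.98, 7.49 and 8.01 in everolimus, and 8.01, 8.51 and 8.43 and 7.94, 7.93 and 8.04 in MDA-MB-231. Its log2 fold changes were 0.24 ± 0.26 and -0.35 ± 0.26, with overlap in both lines.

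B2M, the light chain of MHC class I, was among the brightest probes, at 12.81, 13.04 and 13.24 in BT-549 in DMSO and 12.25, 13.23 and 12.99 in everolimus. In MDA-MB-231 it read 13.03, 13.42 and 13.33 in DMSO and 13.27, 13.57 and 13.49 in everolimus. Groups overlapped in both lines, at -0.21 ± 0.23 and 0.18 ± 0.23. A second B2M probe gave -0.64 and 0.43.

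HLA-B read 7.20, 8.23 and 8.52 in BT-549 in DMSO and 7.30, 9.21 and 9.80 in everolimus. Replicate 1 was the lowest in both groups, and replicates 2 and 3 of everolimus lay above every DMSO array. The log2 fold change was 0.79 ± 0.56 (adjusted p = 0.373), and 1.13 ± 0.19 (adjusted p = 0.00129) on the 8 arrays. In MDA-MB-231 it read 9.92, 9.46 and 9.17 in DMSO and 10.49, 9.74 and 9.96 in everolimus, with replicate 1 the highest (0.55 ± 0.56). HLA-C read 7.63, 7.68 and 7.39 in BT-549 in DMSO and 7.22, 7.35 and 7.37 in everolimus, lower on every array but not called (-0.25 ± 0.19, adjusted p = 0.413). In MDA-MB-231 its values were 7.62, 6.96 and 6.94 in DMSO and 7.86, 7.53 and 7.28 in everolimus (0.38 ± 0.19, adjusted p = 0.535). The HLA genes are highly polymorphic and close copies of each other, so a probe may bind 1 line's allele less well or another gene's RNA.

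**Figure D3:**
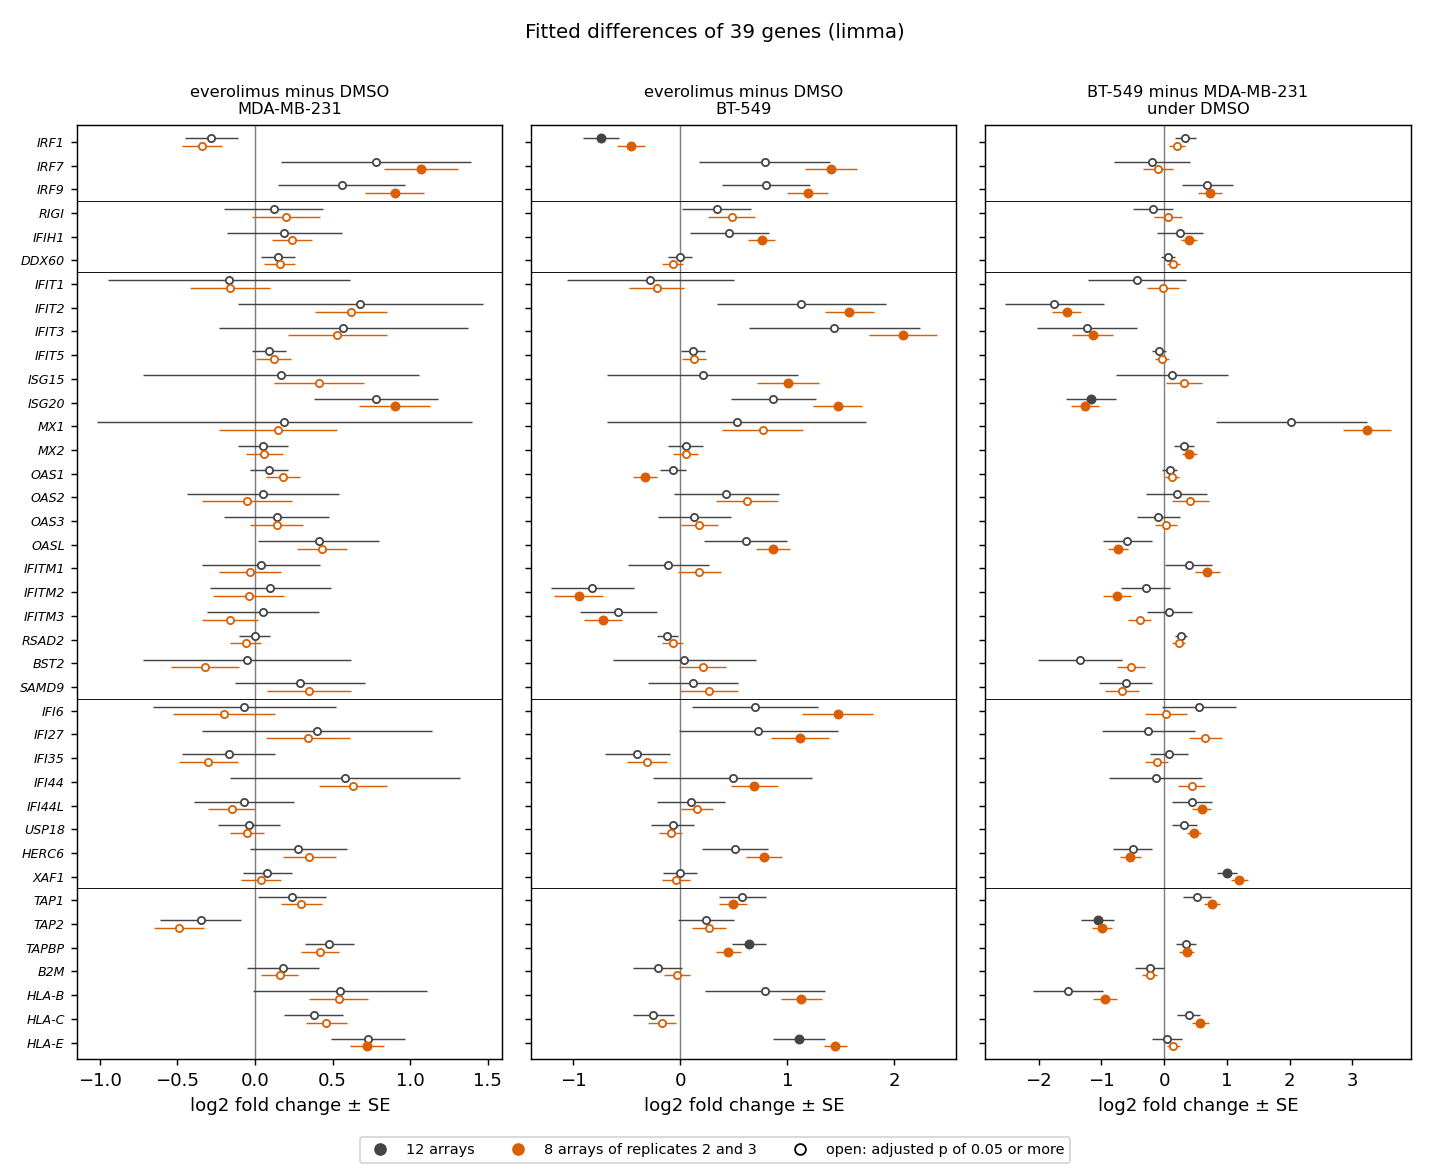
Fitted log2 fold changes ± SE of the 39 genes for everolimus against DMSO in each line and for the DMSO arrays of BT-549 against those of MDA-MB-231, from all 12 arrays (grey) and from the 8 arrays of replicates 2 and 3 (orange); filled symbols are adjusted p under 0.05. Standard errors are wider with all arrays, and more symbols are filled in BT-549 without replicate 1 (20 of 39) than with it (3 of 39).

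The test of the difference between the lines' responses called 0 of the 39 genes, against 0.638% of all genes. At an unadjusted p under 0.05 it was 1 of 39, against 15.7% of all genes. This was HLA-C, whose log2 fold change was lower in BT-549 than in MDA-MB-231 (difference -0.64 ± 0.27, adjusted p = 0.293). On the 8 arrays 6 of 39 (15.4%) were called, against 20.7% of all genes. Everolimus changes were more positive in BT-549 for IFI6 (1.67 ± 0.47), IFIT3 (1.55 ± 0.45), TAP2 (0.76 ± 0.23) and HLA-E (0.72 ± 0.16), and more negative for HLA-C (-0.63 ± 0.18) and OAS1 on its other probe (-0.50 ± 0.16). Over all arrays, the second probe above the floor gave a negative difference for IFI6 (-0.78), IFIT3 (-0.62) and TAP2 (-0.31), so the direction for these 3 genes depends on the probe. The calls in BT-549 and not in MDA-MB-231 over all arrays are therefore not shown to differ between the lines.

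Under DMSO the lines differed in 3 of the 39 genes (7.69%), against 30.4% of all genes. XAF1 was 2.01-fold higher in BT-549 (1.01 ± 0.16, adjusted p = 0.000713), with no overlap of arrays, and was the 1 gene called higher, against 14.9% of all genes. ISG20 and TAP2 were lower, against 15.5% of all genes, by 2.23-fold for ISG20 (-1.16 ± 0.40, adjusted p = 0.0484) and 2.08-fold for TAP2 (-1.06 ± 0.26, adjusted p = 0.0102). A second TAP2 probe gave 0.16, and with the mean of probes TAP2 was at -0.45 with no call (adjusted p = 0.0604). ISG20 lost its call in 10 of the 12 fits that left out 1 array. On the 8 arrays 19 of 39 (48.7%) were called, against 47.3% of all genes, a share near the background. MX1 was then 9.48-fold higher in BT-549 (3.24 ± 0.38, adjusted p = 7.6e-05), while over all arrays it was at 2.03 ± 1.21 (adjusted p = 0.233), since its BT-549 replicate 1 was below every MDA-MB-231 array.

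The rest of the pathway was read from lists, first over all arrays, where 9.54% of all genes rose and 7.23% fell in BT-549. Of 20 interferon genes, 1 passed the floor, IFNE, at group means of 6.64 to 6.78, and it was not called. Of 14 tested receptors and signalling genes, 0 rose and 3 fell with everolimus in BT-549: the receptor chains IFNAR2 (-0.43 ± 0.09, adjusted p = 0.0123) and IL10RB (-0.94 ± 0.27, adjusted p = 0.0383) and the kinase JAK1 (adjusted p = 0.0238). JAK1 read 9.41, 8.65 and 8.13 in BT-549 in DMSO and 8.19, 6.69 and 6.63 in everolimus, where replicates 2 and 3 were below the floor. Of 11 sensors and adaptors 0 were called in BT-549. Of 37 other interferon-stimulated genes 2 rose there and 0 fell: TYMP, thymidine phosphorylase (1.35 ± 0.25, adjusted p = 0.00703), and HERC5, the ISG15 ligase (1.50 ± 0.42, adjusted p = 0.0325).

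Of 14 proteasome and peptide-loading genes, 2 fell in BT-549, the constitutive proteasome subunit PSMB6 (-0.81 ± 0.16, adjusted p = 0.0088) and the proteasome activator PSME2 (-0.66 ± 0.18, adjusted p = 0.0312). Of 8 MHC class II genes, 1 fell, RFXAP, a subunit of the factor that drives class II promoters (-0.61 ± 0.14, adjusted p = 0.0134). Under DMSO 5 of these 8 were lower in BT-549 than in MDA-MB-231 (15.5% of all genes were), and 1 was higher, RFXAP (0.69, adjusted p = 0.00309). HLA-DRA was among the lower ones (-1.53), as was HLA-DPA1, which was not above the floor on any BT-549 array. In MDA-MB-231, 0 genes of these lists were called for everolimus over all arrays. The 8-array calls in BT-549 were 1 higher and 4 lower of 14 receptors and signalling genes, 3 higher of 11 sensors and adaptors, 8 higher and 4 lower of 35 other interferon-stimulated genes, 2 higher and 3 lower of 14 proteasome and peptide-loading genes, and 2 lower of 8 class II genes. These stand against 22.9% higher and 16.6% lower over all genes. In MDA-MB-231 each of these lists then had 1 call, which was lower for the other interferon-stimulated genes and higher for the rest. Over all genes 7.16% were called there in that fit.

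Leukocyte markers, which a culture of these lines should not hold, were read beside the genes. Of 13 markers with a probe, 7 passed the floor and PTPRC, CD3D, CD3E, CD4, CD79A and MS4A1 did not. Over all arrays 0 were called for everolimus in either line. On the 8 arrays 2 of the 7 were called higher in BT-549, where 22.9% of all genes were. CD68, a lysosomal protein also made outside the macrophage lineage, read 8.17, 9.09 and 9.56 in BT-549 in DMSO and 8.50, 11.09 and 11.31 in everolimus. Its replicate 1 was the lowest in both groups. Of the 7 markers, replicate 1 was the lowest for 2 in BT-549 in DMSO and 5 in everolimus. In MDA-MB-231 it was the lowest for 5 in DMSO and 3 in everolimus. Over all genes these shares were 45.4% to 46.2%. CD14 had replicate 1 the highest in MDA-MB-231, at 8.41, 7.25 and 7.03 in DMSO and 7.92, 7.11 and 6.92 in everolimus. The summed log2 signal of the 7 markers ranged over 53.0 to 53.4 in MDA-MB-231 in DMSO, 53.3 to 54.4 in MDA-MB-231 in everolimus, 50.4 to 51.0 in BT-549 in DMSO and 49.8 to 53.3 in BT-549 in everolimus, and without CD68 over 41.3 to 42.5 in all groups. Each marker other than CD68 had group means of 6.5 to 7.56, near the floor. Their sum can therefore change little and does not measure leukocyte content. The part of the leukocyte markers in the results was not tested.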

How the data were processed

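RNA of 12 samples in 4 groups of 3 was read on Illumina arrays. The labels' protocols name mirVana isolation, TotalPrep amplification and streptavidin-Cy3 labelling. The deposited log2 values of 47230 probes have the same quantiles on every array (median 6.65), so the authors normalized between arrays. The log base is inferred from the range of the values, and the software is not given in the sources used here. A second deposited table has 12 columns whose names match no sample, and it was not used here.

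Probes with 1 gene symbol (30113) were kept if above a floor of 6.77 on at least 3 arrays (background peak 6.55 plus 3 SDs of 0.0724), and the brightest probe over the arrays fitted stood for a gene. A limma model of group means (limma 3.58.1, R 4.3.3) used all arrays (8 residual degrees of freedom, 2.89 from the prior), with 4 contrasts, Benjamini-Hochberg adjustment over 11764 genes and calls under 0.05. The code was tested on simulated data. The median standard error was 0.155, and the number of arrays limits the precision. 0 array pairs were identical. In MDA-MB-231, same-numbered arrays deviated together (r = 0.735, 0.544 and 0.418, limit 0.1), and a replicate block changed no call of a listed gene there. Replicate 2 in DMSO correlated slightly better with another number (0.546), and replicate 3 in everolimus was not best with its own.

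The genes, lists and alternatives were chosen with earlier results of these data known. Genes given on every array are those called, the 5 with the smallest p in each everolimus comparison, and IFIT1, ISG15, MX1, OAS1, IRF9, B2M, HLA-B and TAP1, and other genes whose values by array are given were chosen after these were seen. Lists name up to 4 genes with the smallest p. Alternatives were the floor, equal medians, background subtraction, the mean of probes, another prior, the block, single lines and leaving out arrays.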

Additional observations from a re-analysis of the deposited data

How the results depend on the processing

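The number of the 39 genes called for everolimus in BT-549 (3 over all arrays) was 0 when the 6 arrays of that line were fitted alone, 13 with a replicate block (10 higher and 3 lower, MX1 among the higher with an adjusted p of 0.0397, against 27.9% of all genes), 20 without the replicate 1 arrays, and 1 to 14 when single arrays were left out. In MDA-MB-231 it was 4 without the replicate 1 arrays and 0 to 1 without single arrays, for the difference between lines 6 and 0 to 1, and for the lines under DMSO 19 and 2 to 7, with 5 under a trended robust prior. The highest of these single-array counts (1, 1 and 7) came without BT-549 everolimus replicate 1. No share over all genes is given beside the single-array counts, so they cannot be read as particular to the 39 genes. The block could not be fitted for the lines under DMSO, since replicate numbers lie within lines. In BT-549 the same-numbered arrays correlated at r = 0.5, 0.0787 and 0.411. As 0.0787 is under the limit of 0.1, the numbers were not taken as pairs. In neither line did every array correlate best with its own number. The other alternatives kept these counts within 1.5 times. No gene called over all arrays changed direction in the comparison that called it. Uncalled values changed sign for XAF1 in BT-549 with equal medians (-0.07) and without the replicate 1 arrays (-0.04), and with the mean of probes for XAF1 in MDA-MB-231 (-0.08) and TAP2 in BT-549 (-0.09). Without single arrays, log2 fold changes in MDA-MB-231 ran from -0.53 to 0.20 for IFIT1, -0.25 to 0.65 for ISG15 and -0.02 to 0.16 for XAF1. In BT-549 they ran from -1.04 to 0.54 for IFIT1, -0.58 to 1.45 for ISG15, -0.71 to 2.01 for MX1, -0.19 to 0.00 for OAS1, -0.13 to 0.10 for XAF1, -0.02 to 0.49 for TAP2 and -0.41 to 0.08 for B2M. HLA-E kept its BT-549 call in 11 of 12 such fits, and TAPBP and IRF1 in 10 of 12. The cause of these changes was not tested. Probes near the floor limit what can be seen of IFIT5, MX2, OAS1, RSAD2 and USP18.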
